A study of Mus musculus with 4 samples.

Results

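The Ly6/uPAR (LU) domain family was followed through 8 genes, Ly6a (Sca-1), Ly6c1, Ly6e, Ly6d, Slurp1, Cd59a, Plaur and Gpihbp1, out of 16659 genes measured on the arrays. The genes were taken by name, through the gene name printed in the scanner files or an older synonym of it, and they were chosen by family with their log2 changes from the CMP control on these same arrays already known. Those changes are therefore described and not tested. The 8 genes were read by 9 probes of 60 bases, 2 for Ly6c1 and 1 for each of the other genes, and all 8 were well above background on all 4 arrays.

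Adult cardiac mesenchymal progenitors (CMPs) are Sca-1+ cells grown from the hearts of wild-type C57BL/6 mice, on collagen I, in medium with 40 ng/ml bFGF by the labels and a lower concentration in the study's methods. The CMP control was untreated at day 0. OSKM-CMPs were CMPs seeded, by the study's methods, on Geltrex-coated plates and transduced with Sendai virus carrying Oct3/4, Sox2, Klf4 and c-Myc. They were then moved to a reprogramming medium without leukemia inhibitory factor, and were taken at day 4, day 6 and day 8. There was 1 array a condition, hybridised with 250 ng of Cy3-labelled RNA, so no difference has a replicate check and no p-value was computed, and the number of mice or cultures behind an array was not given in the sources used here. Virus, factors, medium, any change of growth surface and time in culture cannot be told apart. No array of mock-transduced cells or of untreated cells kept in culture was analysed here. In RNA from a whole culture, a change in the share of cells that hold a transcript and a change in its amount per cell cannot be told apart either.

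LU proteins share a small fold of finger-like loops held by disulfide bonds between conserved cysteines. Most are tied to the outer face of the membrane by a glycosylphosphatidylinositol (GPI) anchor, and a few, such as Slurp1, are secreted. Their jobs differ widely: Ly6a is the antigen by which many stem and progenitor cells of the mouse are sorted, Cd59a stops the membrane attack complex of complement, Plaur is the receptor of the protease urokinase, and Gpihbp1 carries lipoprotein lipase across the wall of capillaries. Ly6a, Ly6c1 and Ly6e are known to respond to interferon. Many of the Ly6 genes, Ly6a included, lie side by side in a cluster on mouse chromosome 15.

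Because neighbouring Ly6 genes are near copies of each other, the letters of the probes bear on how the values are read. These 4 probes of the cluster are shown because their day 8 changes lay close together and because 2 of them share a run of letters. The probes are given 5′ to 3′ as in the scanner files, with positions on mm9, and capitals mark the 28 bases that the Ly6g probe shares with the probe of the Ensembl transcript ENSMUST00000089689.
Ly6c1, chr15:74877785-74877844: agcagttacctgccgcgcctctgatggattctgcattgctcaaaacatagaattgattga
Ly6g, chr15:74989023-74989082: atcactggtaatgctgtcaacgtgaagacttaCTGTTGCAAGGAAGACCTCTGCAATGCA
ENSMUST00000089689, chr15:75066100-75066159: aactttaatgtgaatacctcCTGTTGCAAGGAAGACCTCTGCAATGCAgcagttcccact
9030619P08Rik, chr15:75260421-75261818: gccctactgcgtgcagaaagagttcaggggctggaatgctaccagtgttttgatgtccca
The Ly6g probe is on the plus strand and the others on the minus strand. The accessions listed for the Ly6c1 probe shown include one of Ly6c2 as well as one of Ly6c1, so its signal can come from either gene, and Ly6c2 had no probe of its own under that name. The probe of 9030619P08Rik crosses an intron, which is why its span is longer than its letters. Among the 14 measured probes that lie from Ly6e up to Ly6h, 91 pairs were compared without gaps, and the Ly6g and ENSMUST00000089689 pair was the 1 pair with a shared run of at least 12 bases. The longest run in any other pair was 9 bases. Signals of Ly6 genes with near copies are uncertain, since the probes were compared with each other and not with every transcript of the genome.

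Ly6a, the marker that defines the cells, was 6.47-fold higher in OSKM-CMPs at day 8 than in the CMP control. Its processed signal, on a probe at chr15:74825553-74825612, was 9791 in the control and 40029, 50651 and 66890 at days 4, 6 and 8. The control was the lowest array and each later array was higher than the one before. On the log2 scale, after each array was set to its own 75th percentile, the change from the control was 2.03 ± 0.20 at day 4, 2.31 ± 0.20 at day 6 and 2.69 ± 0.20 at day 8. Here and below, ± is the SD that the scanner software's error model gives for the difference. It covers the measurement on the array and not the spread between cultures, and it is smaller where several spots or probes were averaged. By day 4, 75.5% of the day 8 change was present, and the step from day 4 to day 8 (0.66 ± 0.20) was more than 2 of these SDs while the steps from day 4 to 6 and from day 6 to 8 were not.

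Ly6c1, a surface antigen of monocytes and of some endothelial cells, was higher like Ly6a, and almost in parallel with it on the probe from base 732. The probe that starts at base 732 of its transcript read 16987 in the control, then 71998, 91954 and 115792 at days 4, 6 and 8. The probe that starts at base 184, whose letters are shown above, read 461, 2752, 2943 and 3561 in the same order. Both probes were lowest in the control and highest at day 8, although their signals lay far apart. At day 8 their changes were 2.69 ± 0.20 and 2.87 ± 0.20, a difference of less than 1 technical SD. At day 4 they lay further apart, at 2.09 ± 0.20 and 2.58 ± 0.20. The step from day 4 to day 8 was larger than 2 technical SDs on the first probe (0.60 ± 0.20) and not on the second (0.29 ± 0.20). As a gene, from the mean of both probes, Ly6c1 changed by 2.33, 2.49 and 2.78.

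Ly6e, a GPI-anchored protein widely used as an interferon-inducible marker, had a signal of 9252 in the control and 27966, 38315 and 45840 at days 4, 6 and 8. It was higher on every later array, with changes of 1.60 ± 0.20, 1.99 ± 0.20 and 2.23 ± 0.20, or 4.69-fold at day 8. Ly6d, which is found on early lymphoid cells and on stratified epithelia, had the smallest change among the members that were higher and the latest: its signal was 134 in the control, then 231, 287 and 508 at days 4, 6 and 8. Its change was 0.78 ± 0.21 at day 4, under 2-fold, 1.04 ± 0.21 at day 6 and 1.84 ± 0.21 at day 8, so that 42.6% of it was present at day 4. The step of Ly6d from day 6 to day 8 (0.80 ± 0.20) was larger than 2 technical SDs.

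Slurp1, a secreted LU protein of keratinocytes that acts on nicotinic acetylcholine receptors, had by far the largest change of the 8 genes. Its probe at chr15:74557085-74557144 read 57.7 in the control and 17119, 26709 and 44054 at days 4, 6 and 8. The control value was low but well above background, and the lowest OSKM-CMP value was 297-fold higher. The changes were 8.22 ± 0.21, 8.79 ± 0.21 and 9.50 ± 0.21 on the log2 scale, or 723-fold at day 8, and both the step from day 4 to 6 (0.58 ± 0.20) and that from day 6 to 8 (0.71 ± 0.20) were larger than 2 technical SDs. Of the 14200 genes well above background on both the control and day 8 arrays, 1 had a larger rise at day 8, which made Slurp1 the 2nd. With normexp background correction and quantile normalization, its day 8 change was 8.54.

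Of the 8 markers of epithelium and keratinocytes listed beside it, 6 were measured and 4 were at least 2-fold higher at day 8, where 14.4% of all genes were. Krt14, a keratin of basal keratinocytes, went from 23.6 in the control to 984 at day 4, 569 at day 6 and 753 at day 8 (4.92 ± 0.24 at day 8). Krt8, a keratin of simple epithelia, was not well above background in the control and was at least 78-fold higher at day 8. Cdh1, the epithelial cadherin, was likewise not well above background in the control and was at least 11.5-fold higher. Krt10 changed by 1.11 ± 0.16, whereas Krt5, the partner of Krt14, changed by 0.24 ± 0.25 and Krt18 by -0.78 ± 0.21. The summed level of the 6 genes, in units of an array's 75th percentile, was 1.0 in the control and 6.5, 4.0 and 5.1 at day 4, 6 and 8. No array had Epcam or Dsg1a well above background. The part of such cells in the Slurp1 values was not tested.

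**Figure D1:**
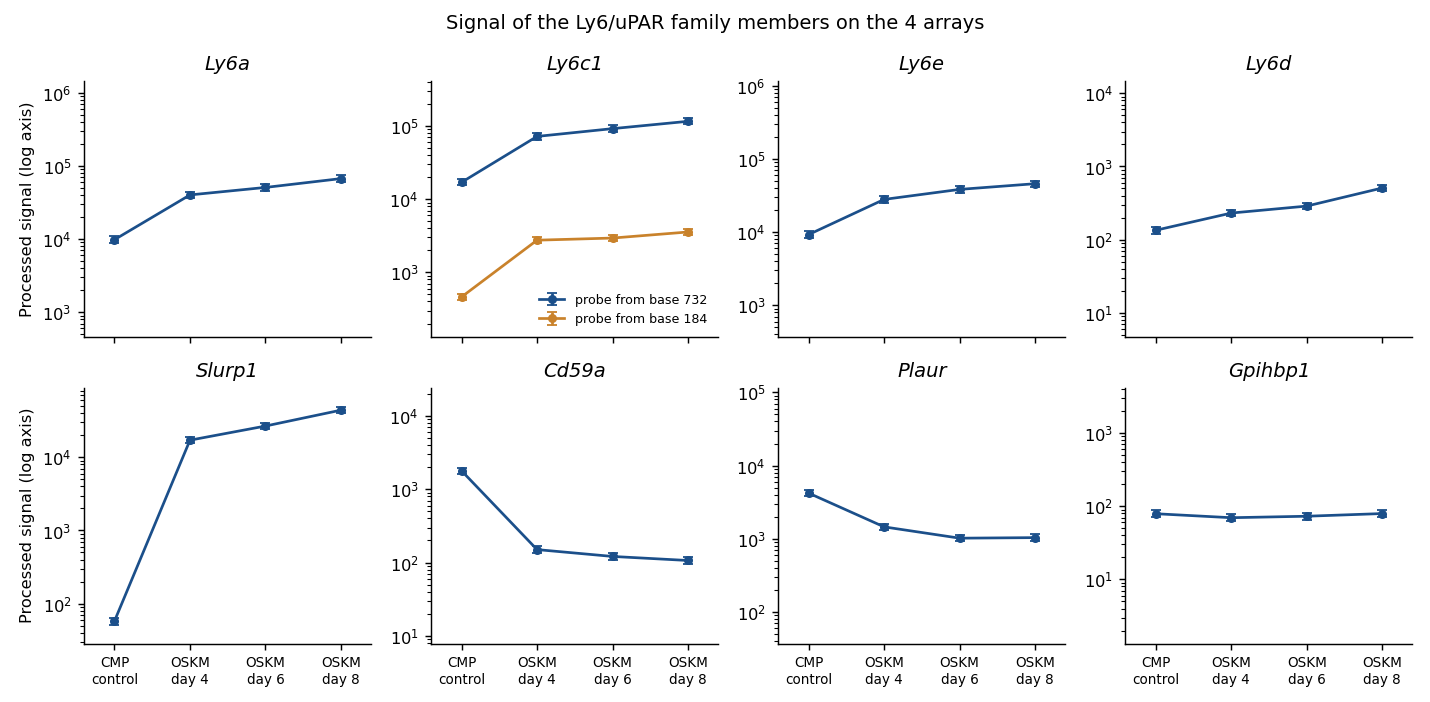
Processed signal of the 8 family members (y axes, logarithmic, each panel spanning the same number of decades) in the CMP control and in OSKM-CMPs at day 4, 6 and 8 (x axes). Each point is 1 array, and bars are the scanner software's technical SD. Ly6a, Ly6c1, Ly6e, Ly6d and Slurp1 were lowest in the control, Cd59a and Plaur were highest there, and Gpihbp1 stayed between 69.6 and 79.3. Levels of different probes cannot be compared.

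Cd59a, the inhibitor of the membrane attack complex, and Plaur, the urokinase receptor, were the members that were lower in OSKM-CMPs. The Cd59a probe (chr2:103954688-103954747) read 1793 in the control, then 150, 121 and 106.6 at days 4, 6 and 8. All OSKM-CMP values lay far below the control, and 86.1% of the day 8 change was present at day 4. The change was -3.57 ± 0.21, -3.95 ± 0.21 and -4.15 ± 0.21, a level 17.8-fold lower at day 8, and the 45th largest fall among the 14200 genes measured on both arrays; with normexp and quantile normalization the day 8 change was -3.51. Its close relative Cd59b, which in the mouse is mainly a gene of the testis, read 35.3 in the control and 49.0, 40.3 and 24.4 at days 4, 6 and 8, a change of -0.61 ± 0.29.

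The Plaur probe (chr7:25260569-25260628) read 4205 in the control, then 1453, 1018 and 1036 at days 4, 6 and 8. The signal was lower at day 6 than at day 4 by more than 2 technical SDs (-0.58 ± 0.20) and was level from day 6 to day 8 (0.01 ± 0.20). Its changes from the control were -1.53 ± 0.20, -2.11 ± 0.20 and -2.10 ± 0.20, or 4.29-fold lower at day 8.

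Gpihbp1, which lies at the far end of the chromosome 15 cluster from Slurp1, was the member without a change of that size. Its probe (chr15:75428484-75428543) read 78.9 in the control and 69.6, 72.9 and 79.3 at days 4, 6 and 8. All of its changes, -0.18 ± 0.22, -0.18 ± 0.22 and -0.07 ± 0.21, were smaller than 1 technical SD.

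At a threshold of 2-fold, 4 of the 8 members were higher at day 4, where 12.1% of all genes were, and 5 of 8 at day 6 and at day 8, where 13% and 14.4% of all genes were. The member gained between day 4 and day 6 was Ly6d, whose day 6 change fell under 2-fold when arrays were scaled to their median (0.90), by quantile normalization (0.94) or by normexp background correction with quantile normalization (0.66). Cd59a and Plaur, 2 of 8, were at least 2-fold lower on all 3 days, beside 9.57% of all genes at day 4, 11.5% at day 6 and 11.7% at day 8. Since the 8 genes were chosen with these changes known, nothing follows from the counts being above the background. When each array was set to its median in place of its 75th percentile, the day 8 median over all genes moved from -0.03 to -0.30, and the genes past 2-fold split into 1878 higher and 2812 lower in place of 2392 and 1941. The direction of all 7 members past 2-fold held under that scale too.

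**Figure D2:**
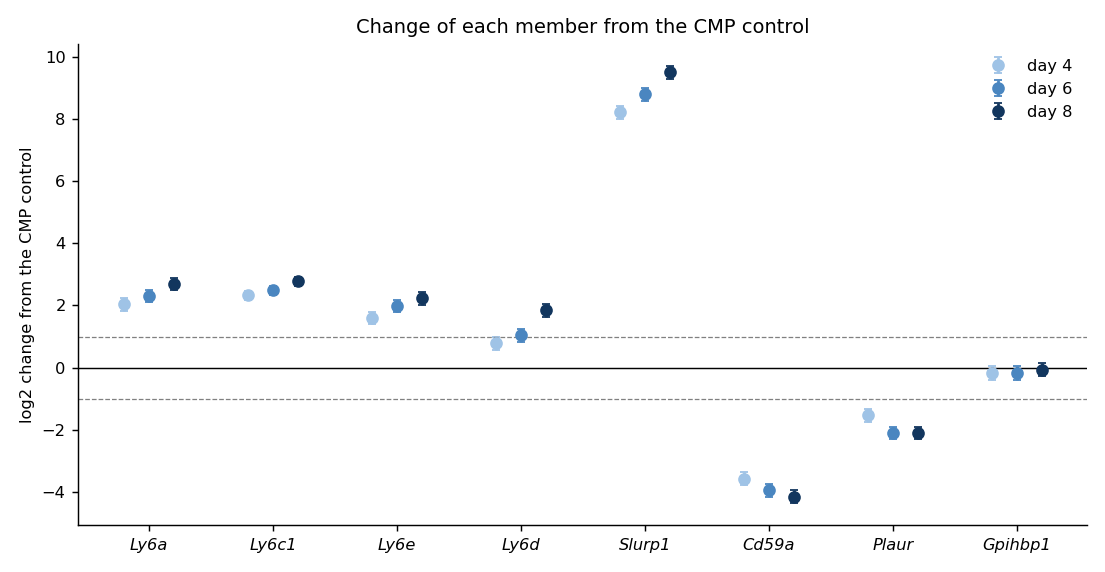
Change of each of the 8 members from the CMP control (y axis, log2) at day 4, 6 and 8 (shades), with the technical SD as bars and dashed lines at 2-fold. The changes run from -4.15 for Cd59a to 9.50 for Slurp1 at day 8, and Gpihbp1 stays near 0.

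The cluster on chromosome 15 was then read probe by probe. Between the outermost probes of the listed family genes, chr15:74546879-75428543 on mm9 (882 kb), the array holds 39 probes, of which 29 were well above background on at least 1 array and 21 on all 4. Of the 21, 12 were at least 2-fold higher at day 8, 2 at least 2-fold lower and 7 in between. Of the 13761 genes well above background on all 4 arrays, 1338 were higher and 1399 lower. The 12 include the probes of Slurp1, Ly6d, Ly6e, Ly6a and Ly6c1, which were chosen with their changes known. The cluster thus did not move as a whole, and neighbours went opposite ways.

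At the Slurp1 end, Lypd2, next to Slurp1, read 67.8 in the control and 402, 505 and 670 at day 4, 6 and 8, a change of 3.23 ± 0.21 at day 8. Slurp2 and Lynx1, the next genes, which also act on nicotinic receptors, stayed within 2-fold: Slurp2 went from 477 to 324 (-0.63 ± 0.20), and the 2 probes of Lynx1 changed by -0.19 and -0.52. Ly6d comes next, and beyond it lies Ly6k, a Ly6 gene known from the testis and from tumours, which differed from its neighbours. Ly6k read 754 in the control, then 65.6, 49.1 and 40.3 at days 4, 6 and 8, a change of -4.30 ± 0.23, opposite in direction to Ly6d beside it. Gml2, beyond Ly6k, changed by 0.05 ± 0.19. Psca and Them6, at the outer edge beside Slurp1, were not well above background in the control. Psca, a surface antigen of prostate and bladder epithelium, was at least 3.82-fold higher at day 8.

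In the stretch from Ly6e to 9030619P08Rik, 10 probes were well above background on all 4 arrays and 8 of them were at least 2-fold higher on every day, with changes that lay close together: from 1.60 to 2.58 at day 4, from 1.99 to 2.61 at day 6 and from 2.23 to 2.87 at day 8. Those 8 include the probes of the members Ly6e, Ly6a and Ly6c1, which were chosen with their changes known. The probes of 9030619P08Rik and of Ly6g, a marker of granulocytes, differed little from that of Ly6a. 9030619P08Rik read 1201 in the control and 4916, 6609 and 8281 at days 4, 6 and 8, and Ly6g read 387, 1639, 2117 and 2724. The day 8 changes were 2.71 for 9030619P08Rik and 2.74 ± 0.20 for Ly6g, against 2.69 for Ly6a. ENSMUST00000089689, which shares 28 bases with the Ly6g probe, changed by 2.87 and Gm3142 by 2.68. Ly6a2, listed as I830127L07Rik in the files, and Ly6f were not well above background in the control and reached signals of 61.3 and 77.9 at day 8; Ly6f was at least 7.67-fold higher.

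Of the 10 probes of this stretch that were well above background on all 4 arrays, 2 did not follow. Ly6i, between Ly6e and Ly6a, read 26.6 in the control, then 29.6, 40.4 and 42.7 at days 4, 6 and 8, a change of 0.61 ± 0.26. The probe NAP101442-1, which has no gene name and lies between Ly6i and Ly6a, read 49.8 in the control and 18.2 at day 8, a change of -1.53. Among the dimmer probes of the stretch, ENSMUST00000055719 read 9.3 in the control and 14.7, 16.5 and 8.1 at days 4, 6 and 8. The probe A_55_P2047617, also without a gene name, read 7.2, 7.0, 4.6 and 17.7 and was well above background at day 8 alone. At the far end Ly6h, a Ly6 gene of the nervous system, changed by 2.20 ± 0.32, from 15.5 to 75.5, on the probe that was measured, and Gpihbp1 follows it.

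Leukocyte markers are given beside Ly6c1 and Ly6g because both are used to sort myeloid cells. Of 8 listed, 7 were measured. At day 4, 1 of them, the monocyte marker Cd14, was past 2-fold, and at day 6 and day 8 none was in either direction. Cd14 read 154 in the control and 320, 250 and 214 at days 4, 6 and 8, a change of 1.06 at day 4. Their summed level, in units of an array's 75th percentile, was 3.4 in the control and 3.7, 3.5 and 3.3 at days 4, 6 and 8. Ptprc (CD45), the common leukocyte antigen, read 14.8 in the control and 15.8 at day 8, and Itgam (CD11b) read 244 and 239.

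**Figure D3:**
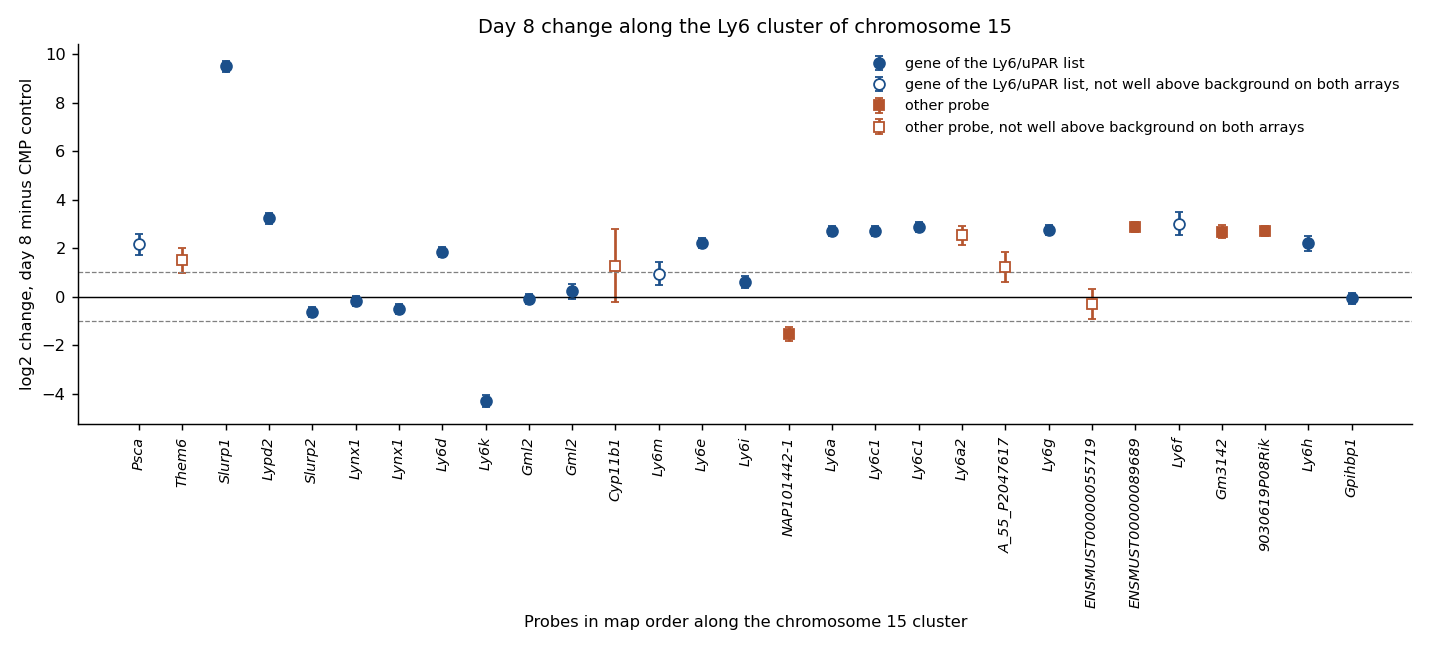
Day 8 change from the CMP control (y axis, log2) of the 29 measured probes of the chromosome 15 cluster in map order (x axis), with the technical SD as bars and dashed lines at 2-fold. Circles are genes of the family list and squares other probes, and open symbols were not well above background on both arrays. Most probes between Ly6e and 9030619P08Rik sit between 2.23 and 2.87, while Ly6k lies at -4.30 and Slurp1 at 9.50.

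A wider list of 44 LU genes, written for this comparison, was measured to 34: 41 had a probe, and no array had Ly6g5c, Ly6g6f, Lypd4, Lypd8, Lypd9, Gml or Cd177 well above background. Of the 34, 17 were at least 2-fold higher and 5 at least 2-fold lower at day 8, beside 14.4% and 11.7% of all genes. These counts use the plain ratio of the values. For Ly6g6d, Lypd10 and Lypd11, all counted, the bounds given below fall short of 2-fold. Pinlyp, counted as higher, was not well above background in the control or at day 8. The median change was 1.04 (0.13 with normexp and quantile normalization) against -0.03 for all genes. The 34 include the 8 members chosen with their changes known, and without them 12 of 26 were higher and 3 lower. A gene can enter the 34 through a single array where it is high, and 8 of them had a probe that was not well above background in the control. Over the 23 that were well above background on all 4 arrays, 10 were at least 2-fold higher and 3 lower, with a median of 0.61. Without the 8 members, 15 remained, of which 5 were higher and 1 lower, with a median of 0.05, beside 1338 higher and 1399 lower and a median of -0.07 over the 13761 genes so measured.

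The genes that were higher outside the cluster lie on several chromosomes. Ly6g6c, in the Ly6 group of the major histocompatibility region on chromosome 17, read 121 in the control, then 2082, 1442 and 1535 at days 4, 6 and 8. Its change was highest at day 4 (4.11) and 3.59 ± 0.21 at day 8, an order unlike that of the members on chromosome 15. Its neighbours Ly6g6d and Ly6g6e were not well above background in the control and were at least 1.8-fold and 2.63-fold higher at day 8, and Ly6g5b of the same group changed by 0.03 ± 0.27.

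Lypd1, a neuronal LU protein on chromosome 1, read 27.2 in the control and 63.4, 79.7 and 104 at days 4, 6 and 8 (1.86 ± 0.24). Lypd6b, which acts on nicotinic receptors, was not well above background in the control and was at least 5.1-fold higher at day 8. Its relative Lypd6 had 1 probe well above background on every array, which read 19.3 in the control and 27.8 at day 8, and 1 that was so at day 6 alone. Lypd3, a gene of stratified epithelium near Plaur on chromosome 7, was 1.17 higher at day 4 and 0.79 ± 0.22 higher at day 8.

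**Figure D4:**
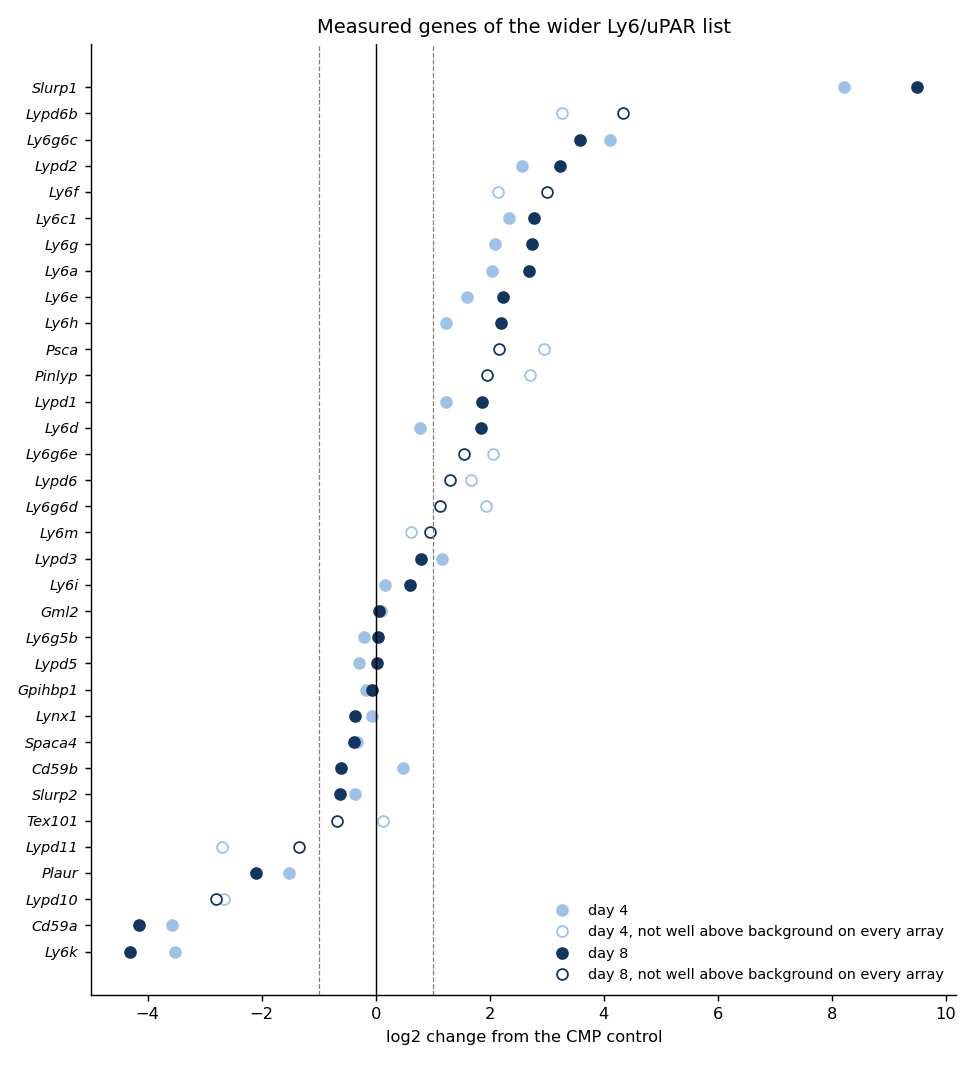
Change from the CMP control (x axis, log2) at day 4 (light) and day 8 (dark) of the 34 measured genes of the wider family list (y axis), ordered by the day 8 change, with dashed lines at 2-fold. Open symbols are genes not well above background on every array. Slurp1 lies apart at 9.50, and Ly6k (-4.30) and Cd59a (-4.15) at the other end.

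The partners of 3 members were read to set them in their pathways. Urokinase (Plau), the protease that Plaur binds, was lower along with its receptor: it read 124 in the control, then 41.3, 29.6 and 19.2 at days 4, 6 and 8 (-2.77 ± 0.28). Of the integrin chains listed with Plaur, Itgb1 changed by -1.35 ± 0.14 and Itga5 by -1.31 ± 0.20. Itgav (-0.74 ± 0.14) and Itgb3 (-0.28 ± 0.15) stayed within 2-fold. Serpinb2 (PAI-2) was 1.19 higher at day 4 and 0.28 ± 0.21 at day 8. Over the 12 of 14 genes of plasminogen activation that were measured, 0 were at least 2-fold higher and 4 lower at day 8, with a median of -0.74. Of all genes, 14.4% were that much higher and 11.7% lower.

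Lipoprotein lipase (Lpl), the cargo of Gpihbp1, changed on arrays where Gpihbp1 stayed within 2-fold. Lpl read 1218 in the control and 395, 8291 and 17916 at days 4, 6 and 8, so that it was below the control at day 4 (-1.62) and above it at day 6 (2.70) and day 8 (3.80 ± 0.14). Angptl4, an inhibitor of the lipase, was highest at day 4: it read 5284 in the control, 38556, 30301 and 23408, with a change of 2.07 ± 0.20 at day 8. Angptl8, another member of that group, went from 218 to 2869 (3.64 ± 0.20) with most of its change after day 4, and the lipoprotein receptor Vldlr changed by 1.41 ± 0.14. Lmf2, related to the folding factor of the lipase, changed by -1.01 ± 0.20. Of 16 genes listed, 13 were measured, 6 of them at least 2-fold higher and 1 lower at day 8, beside 14.4% and 11.7% of all genes. Cd36, counted as higher, was not well above background in the control. The median of the 13 was 0.44, or 0.17 on the scale of array medians.

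Gpihbp1 is made in capillary endothelium, and of 8 endothelial markers 6 were at least 2-fold lower at day 8, where 11.7% of all genes were. Cdh5, the endothelial cadherin, read 117 in the control, was not well above background on the later arrays and was at least 11.9-fold lower at day 8. Tek changed by -2.70 ± 0.27, while Kdr (391 in the control and 343 at day 8) and Pecam1 (58.2 and 66.0) stayed within 2-fold. The summed level of the 8 was 2.2 times the array's 75th percentile in the control and 1.2, 1.2 and 1.1 at day 4, 6 and 8. The part of endothelial cells in the Gpihbp1 values was not tested.

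Around Cd59a, the other membrane regulators of complement did not share its change. Cd55, which breaks up the convertases upstream, read 2805 in the control and 3605, 5315 and 6750 later (1.19 ± 0.20 at day 8), and Cr1l (Crry), which does so too, read 7029 and 5715 (-0.38 ± 0.20). Clusterin (Clu), a soluble inhibitor of the same attack complex, was 2.31 higher at day 4 and 1.99 ± 0.20 higher at day 8. C8g, a chain of a component of that complex, changed by 1.47 ± 0.15. Of 13 genes listed, 8 were measured, with 5 at least 2-fold higher and 0 lower at day 8, beside 14.4% and 11.7% of all genes. Only 5 of the 8 were well above background in the control on every kept probe. C6 and Cd55b, both counted as higher, were not, and such genes can enter through a later array where they are high. The median was 1.33, or 0.40 when dim genes were kept, and 1.09 over probes well above background on all 4 arrays.

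**Figure D5:**
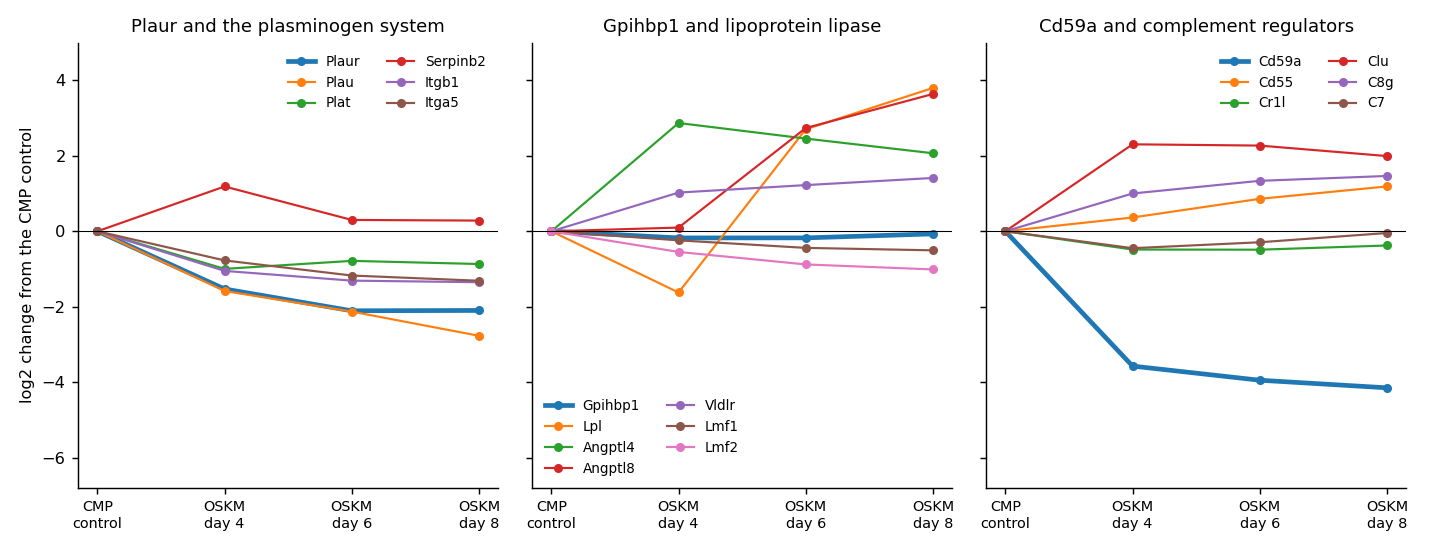
Change from the CMP control (y axis, log2) over the 4 arrays (x axes) for Plaur, Gpihbp1 and Cd59a (thick lines) and genes that act with each (thin lines). Plaur and Plau ran together to day 6, Gpihbp1 stayed near 0 while Lpl went from -1.62 at day 4 to 3.80 at day 8, and Cd59a was lower while Clu and Cd55 were higher.

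Genes that build and attach the GPI anchor, which most of the family needs, were nearly level. Of 30 listed, 28 were measured, with a median of -0.08 at day 8. On that day 2 were at least 2-fold higher and 2 lower, beside 14.4% and 11.7% of all genes. The listed genes past 2-fold were Pigm (1.42 ± 0.21) and Pigc (1.13 ± 0.21) on the higher side and Gpaa1 (-1.12 ± 0.20) and Pgap1 (-1.18 ± 0.37) on the lower.

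Interferon-inducible genes were listed because Ly6a, Ly6c1 and Ly6e belong to that response. All 24 were measured, 23 of them well above background in the control. At day 4, 6 and 8, 19, 20 and 21 of the 24 were at least 2-fold higher, where 12.1%, 13% and 14.4% of all genes were. On each day 0 were at least 2-fold lower, and the medians were 1.72, 2.24 and 2.40. Mx1, an antiviral GTPase, read 22.7 in the control, then 1297, 2326 and 2287 at days 4, 6 and 8. Oasl1, Rsad2 and Ifit1 changed by 5.08 ± 0.20, 4.85 ± 0.20 and 3.53 ± 0.20 at day 8. Irf9, a factor of the interferon response itself, changed by 0.01 ± 0.20. The summed level of the list was 338 times the array's 75th percentile in the control and 842, 1005 and 1057 at day 4, 6 and 8. The part of this response in the Ly6 values was not tested.

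The promoter letters of the family were searched, on both strands, for 4 motifs: the interferon-stimulated response element core GAAANNGAA, the GAS element TTCNNNGAA, the E-box CACGTG that Myc binds and CCCACCC, a Klf4 type site. Windows ran from 250 bases before to 50 after a start in the RefSeq table (GRCm38.p6), which held 3 of the 8 members (Ly6c1, Cd59a and Plaur). The response element core was in the Cd59a window and in none of Ly6c1 or Plaur, and 8.56% of the 32851 windows of all genes held it. CCCACCC was in 1 of the 2 Ly6c1 windows and in 17.5% of all, and no member window held the GAS element (8.30% of all) or the E-box (7.15%). Over the wider list, 35 windows of 25 genes were in the table, and 1 of them (2.86%), that of Cd59a, held the response element core. The GAS element was in 1 of the 35, the E-box in 2 (5.71%) and CCCACCC in 9 (25.7%). A match of letters is not a bound site, and its absence says only that the letters are not in the window. For Cd59a and Ly6c1, the lowest and the highest at day 8 of the 3 members in the table, the part of a window that lies outside the gene as the RefSeq gene table bounds it is shown. These stretches therefore stop short of the start that the window was built on. Capitals mark the match of Cd59a, whose first letter is 187 bases before that start, and the Ly6c1 stretch has no match.
Cd59a, GRCm38.p6 chr2:104095551-104095752, plus strand: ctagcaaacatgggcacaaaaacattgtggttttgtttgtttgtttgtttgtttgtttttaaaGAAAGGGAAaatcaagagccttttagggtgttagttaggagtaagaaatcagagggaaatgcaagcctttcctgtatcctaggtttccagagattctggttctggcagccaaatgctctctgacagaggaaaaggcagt
Ly6c1, GRCm38.p6 chr15:75048921-75049087, minus strand: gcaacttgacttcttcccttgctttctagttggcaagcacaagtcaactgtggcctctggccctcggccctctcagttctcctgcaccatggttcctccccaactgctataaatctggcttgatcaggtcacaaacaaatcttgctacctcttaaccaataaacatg

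Genes outside the wider family list were compared with the members by their pattern over the 4 arrays. The nearest were found by the root mean square difference of values centred per gene, among 13738 genes well above background on all 4. With 4 points that share the control array, many genes come close by this measure, so the names are a description. Nearest to Ly6a was 9030619P08Rik (0.04), which lies in the same cluster on chromosome 15. Whether 9030619P08Rik itself encodes an LU protein was not analysed here. Then came Pdgfc (0.05), a growth factor, Gdap10 (0.07), H2-K1 (0.08), a class I major histocompatibility gene, and Isl1 (0.09), a factor of early heart development. Nearest to Ly6c1 were Isl1, Ppp1r3d and Tgm2, and nearest to Ly6e were H2-Q6 (0.03), H2-Q2 (0.04), both of class I, and the phospholipid transfer protein Pltp (0.04). H2-K1 read 7331 in the control and 49108 at day 8, and H2-Q6 read 3869 and 19508.

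Ly6d lay nearest to Syn2, Il17re and Flrt2, and Cd59a to Slc1a6, Etv4 and Frzb, a secreted inhibitor of Wnt, at 0.05, 0.10 and 0.16. Plaur lay nearest to Tpm4 (0.03), an actin-binding tropomyosin, Crip1 (0.03) and Ankrd50 (0.05). For Slurp1 no gene came as close: the nearest were Inmt at 0.35, Ccl5, a chemokine, at 0.37 and Gdpd2 at 0.53. The measure is not scaled for the size of a change, and Slurp1 had the 2nd largest rise at day 8. Around Gpihbp1, whose values hardly moved, Cpne3, Atp6v1b2 and Hpse lay within 0.01.

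The cell type itself was read from its markers. All 8 mesenchymal markers were well above background on every array, and Ly6a with them, while Thy1 (-1.78 ± 0.20) and Eng (-1.19 ± 0.20) were lower at day 8 and Pdgfra (0.71 ± 0.06), Col1a1 (-0.23 ± 0.20) and Col1a2 (-0.12 ± 0.20) were within 2-fold. All 8 adipocyte markers were at least 2-fold higher at day 6 and day 8, where 13% and 14.4% of all genes were. In the control 5 of the 8 were well above background. Fabp4 was 5.78 ± 0.20 and Pparg 3.83 ± 0.06 above the control at day 8. Of the 6 mesothelial markers, Msln (6.45 ± 0.21) and Krt19 (2.75 ± 0.20) were higher at day 8. On the same array 3 were at least 2-fold lower, where 11.7% of all genes were, with Upk3b at -3.10 ± 0.21. An array had between 56.6% and 59.6% of the 55681 probes well above background, and no spot was saturated.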

How the data were processed

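Cy3 intensities were deposited by the authors as Agilent Feature Extraction output of 4 SurePrint G3 Mouse 8 × 60 K arrays, 1 a condition. The version is 10.7.3.1 per the file headers and 9.5.3 in the submitters' processing notes. Those files hold a background-subtracted processed signal, its error and flags. A log2 table, also deposited by the authors (normalized in GeneSpring GX11), differs from log2 processed signal by a constant for each array and was used as an alternative; its columns have medians from -4.22 to -3.96 and 75th percentiles from 0.0037 to 0.0072, so the constant lies within 0.01 of the array's 75th percentile, and genes were not centred.

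Control spots and outlier spots (87 to 106 an array) were left out, log2 processed signal was averaged per probe, and the 75th percentile of the array (signals of 388 to 411) was subtracted. A probe was kept if 1 or more arrays had it well above background (35547 probes), and the mean of kept probes gave 16659 genes. Probes were named through RefSeq GRCm38.p6 by accession (26762), symbol (3819) or synonym (639), and 24461 had no match. Positions are those of the files (mm9). With 1 array a condition no test was made, a threshold of 2-fold was used, and technical SDs come from the error model; the number of arrays limits precision. The gene call was tested on simulated data. "At least" folds given for a single gene set a bright value against the higher of a dim probe's own signal and the lowest signal well above background. Counts of genes at least 2-fold higher or lower use the plain ratio. Members, gene lists and markers were chosen with earlier results of these data known. Named were all members, every measured gene of the wider list, and in other lists up to 4 genes a direction past 2-fold at day 8 with both arrays well above background, plus Plau, Lpl, Angptl4, Cd55 and Cr1l, with some genes of the lists not reported here; other marker genes were named after their values were seen. Protein sequences were not analysed here. Alternatives were the array median, quantile normalization, normexp (offset 50) with quantile normalization, the authors' table, 3 treatments of dim probes, the brightest probe of a gene, Pearson's r for likeness and a promoter window without the bases after the start. Python 3.11.15, numpy 2.4.6, pandas 2.3.3, matplotlib 3.10.9, R 4.3.3 and limma 3.58.1 were used.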

Additional observations from a re-analysis of the deposited data

How the results depend on the processing

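No paired analysis was possible because a single array stood for every condition. Under 8 alternatives, the 192 values of the members' changes kept their direction and 164 moved by less than 1 technical SD. The 3 treatments of dim probes could not alter the members, and the authors' table could hardly do so, with 24 of 24 values unmoved in each. The brightest probe could alter Ly6c1 alone (23 of 24). Under the array median, quantile and normexp settings, 16, 18 and 11 of 24 values moved by less than 1 technical SD. Members past 2-fold kept their number on each day, except that 4 in place of 5 were higher at day 6 under the array median, quantile and normexp settings, through Ly6d. Scaled to the array median, the day 8 changes were 2.43 (Ly6a), 2.51 (Ly6c1), 1.96 (Ly6e), 1.57 (Ly6d), -4.42 (Cd59a), -2.37 (Plaur), 9.23 (Slurp1) and -0.34 (Gpihbp1), and the list medians 0.77 (wider family), -1.01 (plasminogen activation), 0.17 (lipoprotein lipase), 1.06 (complement), -0.35 (GPI anchor) and 2.14 (interferon). With quantile normalization they were 3.02 (Ly6a), 2.97 (Ly6c1), 2.55 (Ly6e), -0.29 (Gpihbp1) and 0.80 (wider family). With normexp and quantile normalization they were 3.01 (Ly6a), 2.50 (Ly6e), 1.36 (Ly6d), -3.51 (Cd59a), 8.54 (Slurp1), 0.13 (wider family) and 0.87 (complement), and all genes past 2-fold numbered 867, 1007 and 1078 higher and 794, 966 and 1092 lower at day 4, 6 and 8. Over probes well above background on all 4 arrays, 1222, 1368 and 1483 genes were higher, and the medians were 0.53 (wider family) and 1.09 (complement), which follows from fewer genes being left. Without a filter the medians were 0.61 (wider family) and 0.40 (complement), with dim values at the floor the wider family's was 0.66, and with the brightest probe of a gene complement's was 1.09. The array median setting subtracts 1 constant per array, so on a given day every member and list median moves by the same amount. Apart from that and the filter, the cause was not tested. By Pearson's r, 0 of the 5 genes nearest to Ly6a stayed the same, and 440 genes had an r above 0.99. With the 250 bases before the start alone, 7.13%, 7.02%, 6.02% and 15.8% of promoters held the response element core, GAS element, E-box and CCCACCC. Signals near background limit Ly6f, Psca, Lypd6b, Ly6g6d and Ly6g6e to bounds.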

Other observations

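Chromosome 7 holds 8 measured genes of the wider family, Plaur included, and 4 of them, among which is Plaur, were well above background on all 4 arrays. Lypd5 read 96.9 in the control and 104 at day 8, and Spaca4, a gene of sperm, read 73.1 and 59.2. Lypd10 and Lypd11 were well above background in the control alone, with signals of 17.8 and 18.3, and were at least 1.82-fold and 1.87-fold lower at day 8. Tex101, a gene of germ cells, read 13.8 in the control and was not well above background at day 6 or day 8. Pinlyp was well above background at day 4 alone, with a signal of 15.5.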
